A study of Drosophila melanogaster with 12 samples.

Results

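The 10 genes described here are regulators and enzymes of the Drosophila melanogaster salivary gland: fkh, sage, CrebA, sens, hth, exd, eyg, PH4alphaSG1, PH4alphaSG2 and Papss. They were taken by symbol from a table of read counts for 17807 genes, and all 10 were among the 7584 genes with enough counts to be tested. Their transcripts were counted in glands dissected at 14 h and at 12 h after pupariation. The 4 groups were 14 h mutants, 14 h controls, 12 h mutants and 12 h controls, with 3 libraries each. Mutants carried E93Δ12 over E93Δ13, an allele pair of the gene Eip93F, which encodes a transcription factor induced by the steroid hormone ecdysone. Controls also carried an E93 allele, E93Δ1, in 1 copy over a wild-type chromosome, so no group was wild type for this gene. All animals of both genotypes had a w1118 background and a GFP reporter under fkh control (fkh>GFP), were raised on a cornmeal molasses diet and received no treatment. The labels do not say whether the reporter adds transcribed fkh sequence, or how many animals were pooled for a library.

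The larval and prepupal salivary gland is a tube of large secretory cells that opens through ducts. In the embryo the homeotic protein Scr, with its partners Extradenticle (exd) and Homothorax (hth), starts the gland programme. Fork head (fkh) then maintains it together with the basic helix-loop-helix protein Sage and the zinc finger protein Senseless (sens), while CrebA raises the genes of the general secretory machinery. Eyegone (eyg) belongs to the duct side of the programme, and the prolyl hydroxylases PH4alphaSG1 and PH4alphaSG2 and the sulfate donor synthase Papss serve the secretory cells. Fork head is also known to hold down the death genes hid and rpr in the larval gland, which is later destroyed after an ecdysone pulse.

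Eyg was higher in mutant glands at both times, by a log2 fold change of 1.3 at 14 h and 0.88 at 12 h, although the 12 h call was lost in many alternative fits. At 12 h fkh and PH4alphaSG1 were higher in mutants as well, by 1.63 and 2.16, the fkh call being lost without the library richest in gut markers. With age, CrebA rose and sens fell in both genotypes, and PH4alphaSG1 fell in mutants. No share of members called with age, at 10% to 20%, was above that of all genes, at 20.8% to 22.6%. The sens call held in 18 of 23 alternative fits in mutants and 16 of 23 in controls, and the CrebA call in mutants in 17 of 23. Sage and exd had lower means in mutants than in controls at both times, by differences that did not pass the test, and the sage value at 12 h rested on 1 control library. Levels below are counts scaled to 1000000 per library (CPM) with TMM factors (trimmed mean of M-values), and errors of levels are SD over 3 libraries. Fold changes are on the log2 scale with an SE from the edgeR quasi-likelihood test, and a gene was called at an adjusted p under 0.05, with p adjusted by the Benjamini-Hochberg method over all 7584 genes.

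Libraries held 6977403 to 9497317 counts, so that 3 counts correspond to 0.316 to 0.43 CPM before TMM scaling. The TMM factors ran from 0.7537 to 1.261, so on the scaled levels given here the CPM of 3 counts differs from this. Glue genes, which define the secretory cells, summed to 61.9 CPM or more in every library. Counts over Eip93F were higher in libraries with the mutant label, at 1990 ± 32.7 CPM in mutants, against 844 ± 61.3 CPM in controls at 14 h, and at 4080 ± 222 CPM in mutants, against 1720 ± 481 CPM in controls at 12 h. Counts over the whole gene do not test for a null allele. Some libraries stood apart from their group. The 7 gut markers summed to 102 CPM in the 14 h mutant replicate 2 and to 212 CPM in the 12 h mutant replicate 1. They reached 22.9 CPM in the 12 h mutant replicate 2 and 8.32 CPM or less in each other library, with betaTry at 0 in all 14 h libraries and in the 12 h controls, and alphaTry at 0 in the 12 h controls. The 12 h control replicate 1 differed from its partners in sage (153 CPM against 32.1 and 37.5), in hid (226 against 15.4 and 26.4) and in the muscle gene bt (310 against 1230 and 1310). It also differed in CrebA (26.9 against 10.7 and 14.2) and sens (4.73 against 11.8 and 16.8). In these genes it lay on the side of the 14 h controls, whose means were 104, 607, 161, 67.8 and 4.85 CPM in the same order. In Scr it did not, at 7.04 CPM against 5.91 and 1.56, with a 14 h control mean of 2.54 CPM. The reason was not tested. The fkh, sage and hid changes that rest on these libraries are given with and without them.

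**Figure D1:**
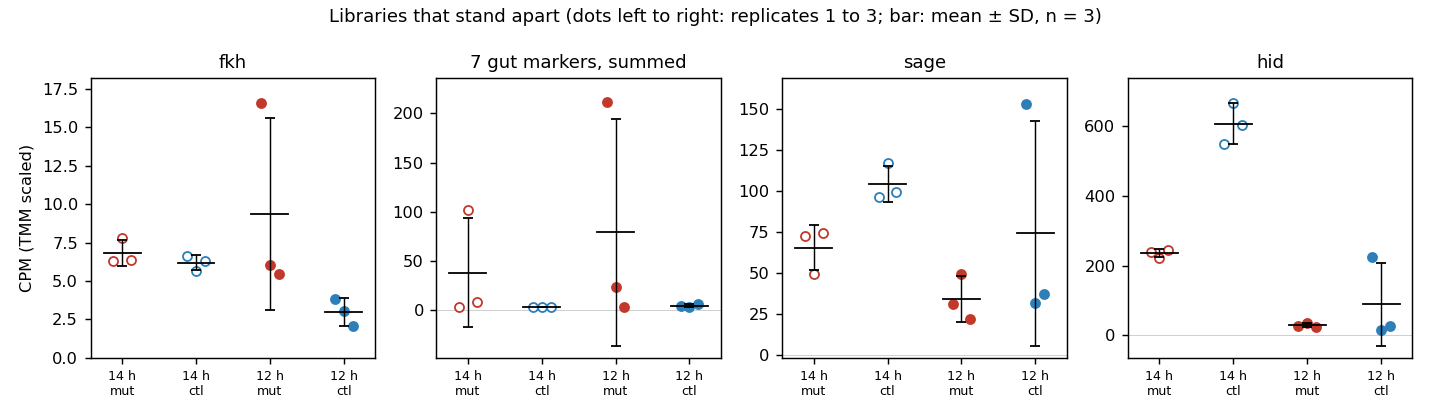
CPM (vertical axis, linear) of fkh, of 7 summed gut markers, of sage and of hid in each library of the 4 groups (mut, mutant; ctl, control); dots are libraries, bars are mean ± SD of 3. The 12 h mutant replicate 1 is high in both fkh (16.6 CPM) and gut markers (212 CPM), and the 12 h control replicate 1 is high in both sage (153 CPM) and hid (226 CPM).

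Per kilobase of exon, the 10 genes covered a wide span of levels, and the order was alike in the groups at its ends. In 14 h mutants sage, a transcription factor that acts with Fork head, led at 45.9 CPM per kb (34.8 to 52.2 over libraries). It led in 14 h controls too, at 73.1 CPM per kb (67.4 to 82.2), with the range above that of every other member. The Hox cofactor gene hth closed the order in all groups, at 0.453 CPM per kb in 14 h mutants and 0.358 in 14 h controls. Over all libraries 87.4% of the tested genes with a known length lay below sage and 3.7% below hth. Between these ends the ranges of several neighbours overlapped or met. In 14 h mutants CrebA (12.5 to 14.6 CPM per kb) met exd (11.4 to 12.5), and the next in order, eyg (8.11 to 10.6), lay clear of both its neighbours. PH4alphaSG1, sens, fkh, Papss and PH4alphaSG2 followed with means of 2.3, 2, 1.59, 1.24 and 1.14 CPM per kb, and the ranges of each neighbouring pair overlapped. In 14 h controls CrebA (13.1 to 16.5) and exd (13.5 to 15.9) overlapped, and eyg (3.03 to 4.31) was again separate. Sens (1.58 to 2.26) lay just above fkh (1.32 to 1.55), and Papss, PH4alphaSG1 and PH4alphaSG2 followed at 1.1, 1.09 and 0.574 CPM per kb with overlapping ranges. In 12 h mutants sage averaged 24 CPM per kb, exd 13.1, PH4alphaSG1 10.7, eyg 7.73, CrebA 7.49, sens 4.45, Papss 2.52, fkh 2.19, PH4alphaSG2 1.25 and hth 0.304. In 12 h controls sage averaged 52, exd 16.8, sens 4.53, eyg 4.23, CrebA 3.83, PH4alphaSG1 2.37, Papss 1.12, fkh 0.695, PH4alphaSG2 0.679 and hth 0.203. At 12 h sage and exd were separate from their neighbours in both genotypes but for exd and PH4alphaSG1 in mutants. Of the later neighbours all overlapped in 12 h mutants, and in 12 h controls all but PH4alphaSG1 with Papss, Papss with fkh, and PH4alphaSG2 with hth. The position of fkh itself was low: 25.5% of tested genes lay below its mean of 1.48 CPM per kb.

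**Figure D2:**
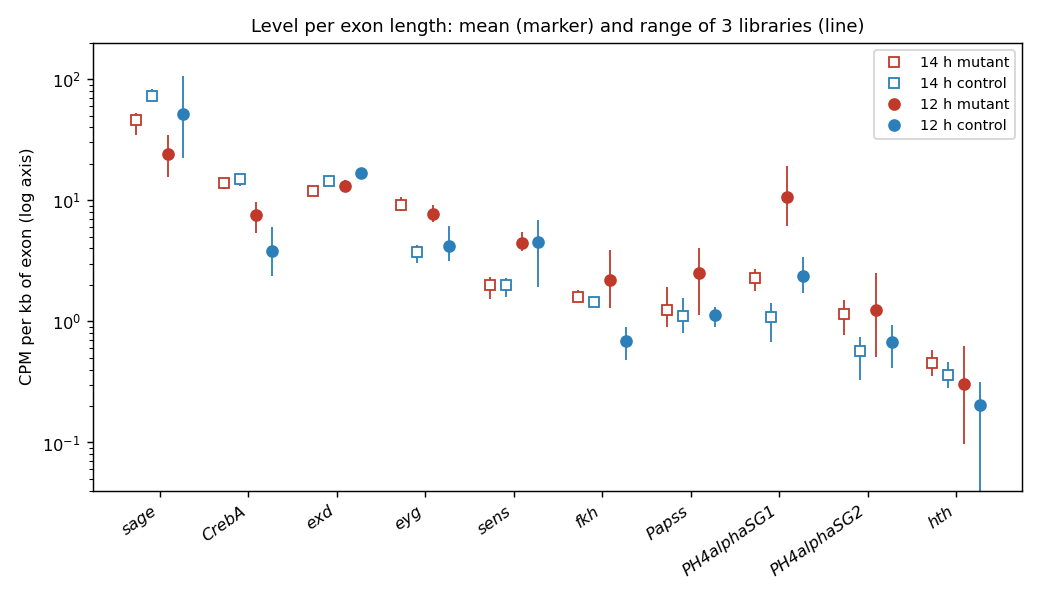
Level of each member in CPM per kb of exon (vertical axis, log scale) for the 4 groups; markers are means and lines run over the range of 3 libraries. In all 4 groups sage is highest and hth lowest; the line of hth in 12 h controls leaves the axis because 1 library had no counts.

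The genotype comparison at each time asked how glands with the mutant allele pair differ in expression under ecdysone control late in the prepupal period. At 14 h 1 of the 10 members was higher in mutants (eyg) and none was lower, while 8.29% of all tested genes were higher and 6.91% lower. The median log2 fold change of the members was 0.15, against 0.05 over all genes. With DESeq2 and limma voom the counts were the same, and at an unadjusted p under 0.05 in edgeR 2 members were higher and 0 lower. At 12 h 3 members were higher (fkh, eyg and PH4alphaSG1) and none was lower, beside 7.94% and 7.87% of all genes, and the median was 0.86, against 0.01 over all genes. DESeq2 and limma voom each called 4 higher and 0 lower there. At an unadjusted p under 0.05 in edgeR 5 were higher and 2 lower. Shares of all genes, here and below, are those of edgeR at an adjusted p under 0.05. The shares under DESeq2, limma voom or an unadjusted p are not given, so those member counts have no background beside them. A fit of the 2 groups compared alone called 0 members at 12 h and 3 at 14 h, and without the 12 h mutant replicate 1 only PH4alphaSG1 was called at 12 h.

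**Figure D3:**
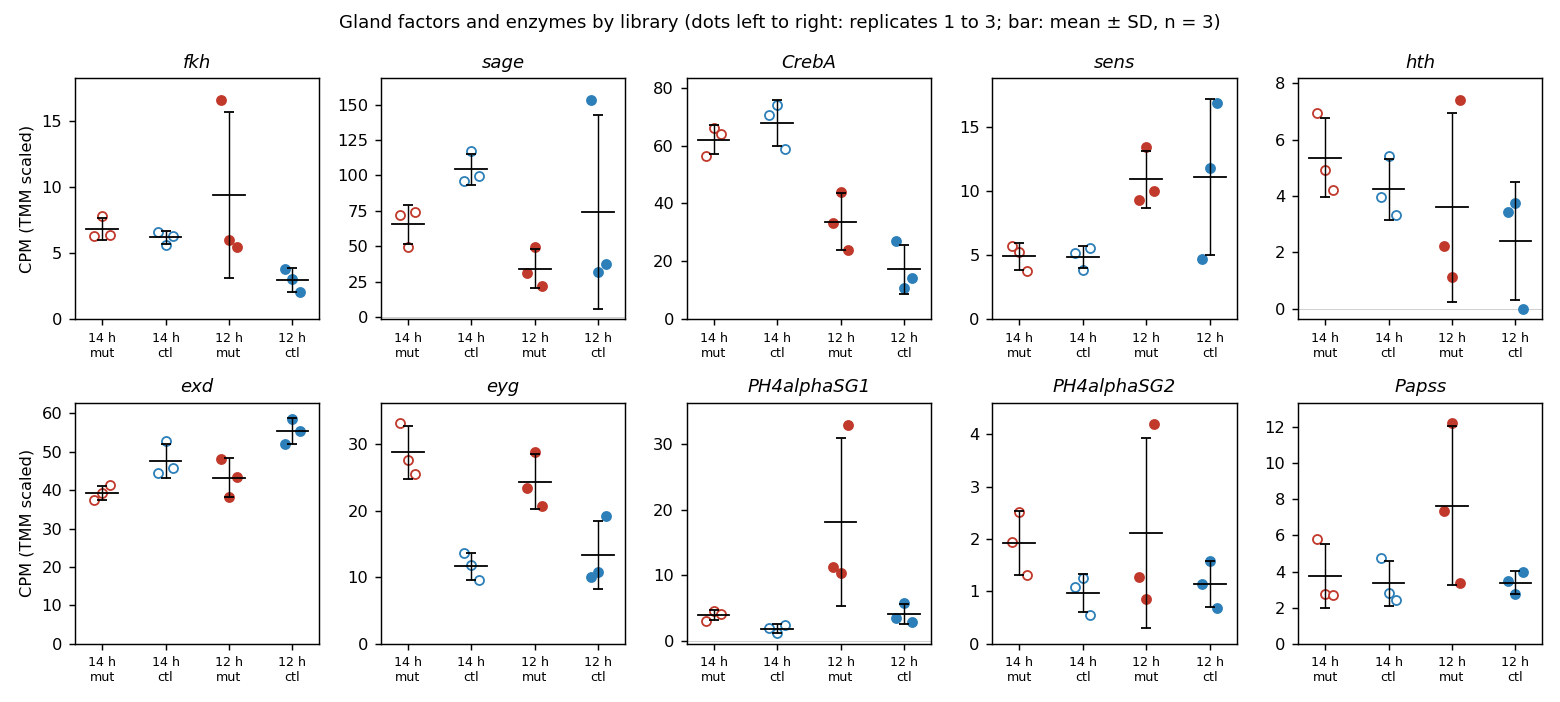
CPM (vertical axes, linear, each from 0 or below) of the 10 members in every library; dots run from replicate 1 to 3, bars are mean ± SD. Mutant and control dots of eyg, exd and PH4alphaSG1 are separate at both times. The SD of fkh, PH4alphaSG1 and Papss is larger in 12 h mutants than in the other groups.

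Among the transcription factors, fkh (FBgn0000659) encodes the forkhead-domain protein that maintains gland identity; it lies on chromosome 3R from 28580976 to 28585264, minus strand, on build BDGP6. At 14 h it stood at 6.32, 7.79 and 6.36 CPM in mutants and 6.63, 5.64 and 6.32 CPM in controls. These groups overlapped, and the log2 fold change of 0.14 (SE 0.37) did not pass (edgeR adjusted p = 0.863). At 12 h it stood at 16.6, 6.01 and 5.48 CPM in mutants and 3.84, 3.03 and 2.07 CPM in controls, so that every mutant library lay above every control library. The change was 1.63 (SE 0.4, edgeR adjusted p = 0.0168). The highest value belonged to the 12 h mutant replicate 1, the library with the most gut marker counts, and without it the change was 0.93 (edgeR adjusted p = 0.0551). Without the 12 h control replicate 3 it was 1.45 (edgeR adjusted p = 0.055). The part of gut tissue in the fkh count was not tested. In bulk glands, fewer cells of a type and less RNA per cell cannot be told apart.

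Sage (FBgn0037672, 3R, 9262654 to 9264142, minus strand) encodes a helix-loop-helix factor found in the gland and needed with Fork head for secretory gene expression. At 14 h it had 72.4, 49.7 and 74.5 CPM in mutants and 96.2, 117 and 99.6 CPM in controls. All mutant libraries were below all control libraries, yet the change of -0.67 (SE 0.49) did not pass (edgeR adjusted p = 0.433). The spread in this test is shared with the 12 h groups, and the SD was 11.4 CPM in 14 h controls and 68.4 CPM in 12 h controls. In a fit of the 14 h groups alone the same change of -0.68 had an edgeR adjusted p of 0.0129. The 12 h libraries held 31.2, 49.5 and 22.2 CPM in mutants and 153, 32.1 and 37.5 CPM in controls, which overlapped. This -1.12 (SE 0.5, edgeR adjusted p = 0.155) at 12 h rested on the 12 h control replicate 1 and was -0.07 without it (edgeR adjusted p = 0.905).

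CrebA (FBgn0004396, 3L, 15535395 to 15553214, plus strand) encodes the bZIP factor that raises secretory capacity. At 14 h it had 56.3, 65.9 and 63.9 CPM in mutants and 70.6, 74.1 and 58.8 CPM in controls, overlapping values whose change was -0.13 (SE 0.29, edgeR adjusted p = 0.832). The 12 h libraries had 33.3, 43.8 and 24 CPM in mutants and 26.9, 10.7 and 14.2 CPM in controls. The highest control value was that of replicate 1, which lay above the lowest mutant. The 12 h change of 0.96 (SE 0.3) fell just outside the threshold (edgeR adjusted p = 0.0505). It passed in 8 of 23 alternatives, at 1.39 without the 12 h control replicate 1 (edgeR adjusted p = 0.00439) and at 1.16 without the 12 h mutant replicate 3 (edgeR adjusted p = 0.0281), and was 0.71 without the 12 h mutant replicate 2 (0.15).

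Sens (FBgn0002573, 3L, 13396228 to 13401125, minus strand), a zinc finger gene whose product guards gland cells against death in the embryo, had near-equal means in the genotypes. It averaged 4.91 ± 1.03 CPM in mutants and 4.85 ± 0.878 CPM in controls at 14 h, and 10.9 ± 2.23 CPM in mutants and 11.1 ± 6.05 CPM in controls at 12 h. The changes were 0.01 (SE 0.38) at 14 h and -0.01 (SE 0.37) at 12 h, and both groups overlapped at each time.

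Of the Hox cofactors, exd (FBgn0000611, X, 15992468 to 15996509, plus strand), a homeodomain partner of Hox proteins, had 37.5, 39.3 and 41.2 CPM in 14 h mutants and 44.4, 52.7 and 45.8 CPM in 14 h controls. At 12 h it had 48.2, 38.2 and 43.3 CPM in mutants and 51.9, 58.6 and 55.5 CPM in controls. Mutants lay below controls without overlap at both times, by -0.28 (SE 0.14, edgeR adjusted p = 0.236) at 14 h and -0.36 (SE 0.14, edgeR adjusted p = 0.114) at 12 h. Neither value passed the test, in the main fit or in any of 23 alternatives. Hth (FBgn0001235, 3R, 10507561 to 10639568, minus strand), which brings Exd into the nucleus, had 30 to 68 counts in each 14 h library, 8 to 46 in the 12 h mutants, and 27, 26 and 0 in the 12 h controls. It stood at 6.93, 4.94 and 4.21 CPM in 14 h mutants, 3.96, 5.43 and 3.33 CPM in 14 h controls, 2.24, 1.14 and 7.41 CPM in 12 h mutants, and 3.45, 3.75 and 0 CPM in 12 h controls. The groups overlapped at both times, and the changes of 0.34 (SE 0.72) at 14 h and 0.53 (SE 0.79) at 12 h were smaller than their SE. Of its exon length 1.748% is shared with asRNA:CR44018 on the other strand, and whether counting used the strand is not given in the sources used here.

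Eyg (FBgn0000625, 3L, 12462537 to 12468021, minus strand) encodes a Pax-family protein that the embryonic gland needs to form its individual ducts. At 14 h it had 33.3, 27.6 and 25.5 CPM in mutants and 13.6, 11.9 and 9.54 CPM in controls. The lowest mutant was far above the highest control, and the change of 1.3 (SE 0.25, edgeR adjusted p = 0.00392) was called in all 23 alternatives, which ranged from 1.17 to 1.42. At 12 h it had 23.4, 28.9 and 20.8 CPM in mutants and 9.98, 10.8 and 19.2 CPM in controls, again without overlap but with the third control close to the mutants. The 12 h change was 0.88 (SE 0.26, edgeR adjusted p = 0.0373). That call was kept in 9 of 23 alternatives. Of the 12 fits that left out 1 library it was lost in 9, all but those without the 12 h control replicate 3, the 14 h control replicate 3 or the 14 h mutant replicate 1, with changes of 0.65 to 0.96 and edgeR adjusted p of 0.0508 to 0.157. With the replicate number as a block it was 0.88 with an edgeR adjusted p of 0.0666.

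The neighbouring Pax gene toe, a paralog of eyg that lies 29.9 kb from it on 3L and is known to overlap it in function, was called higher in mutants at 14 h. Toe had 36.7, 33.9 and 29.7 CPM in 14 h mutants and 18, 17 and 15.5 CPM in 14 h controls, without overlap (change 0.99, SE 0.22, edgeR adjusted p = 0.00952). Without the 14 h control replicate 3 the toe change was 0.92 (edgeR adjusted p = 0.0506). At 12 h toe overlapped between the genotypes, at 53.2 ± 10.9 CPM in mutants, against 49.3 ± 15.1 CPM in controls (change 0.11, SE 0.22, edgeR adjusted p = 0.768). The ratio of eyg to toe in CPM, not corrected for length, was 0.908, 0.812 and 0.858 in 14 h mutants and 0.753, 0.699 and 0.614 in 14 h controls. In the 12 h libraries the ratio was 0.456, 0.445 and 0.48 in mutants and 0.267, 0.244 and 0.29 in controls, so the mutants were the higher group at each time. Summed markers of the duct and imaginal ring, a list of 5 that toe leads, ran from 38 to 52.4 CPM in 14 h mutants, 24.6 to 31 in 14 h controls, 55.4 to 69.8 in 12 h mutants and 48.6 to 69.8 in 12 h controls. Without toe they ran from 8.23 to 15.7 CPM in 14 h mutants and 9.09 to 14 CPM in 14 h controls. At 14 h toe was the 1 called among 4 tested, beside 8.29% of all genes called higher. At 12 h none was called by edgeR, DESeq2 or limma voom, or at an unadjusted p under 0.05 in edgeR. Of all genes 7.94% were called higher and 7.87% lower at 12 h, and 4 genes are too few to differ clearly from such shares. The share of duct cells in the glands was not tested.

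Among the enzymes, PH4alphaSG1 (FBgn0051014, 3R, 30503665 to 30505661, minus strand) and PH4alphaSG2 (FBgn0039779, 3R, 30490074 to 30491987, plus strand) encode alpha subunits of prolyl 4-hydroxylase, which modifies proline in secreted proteins, and both are targets of Fork head in the embryo. PH4alphaSG1 had 3.06, 4.61 and 4.12 CPM in 14 h mutants and 1.98, 1.15 and 2.44 CPM in 14 h controls. The groups did not overlap, but the change of 1.08 (SE 0.49) did not pass (edgeR adjusted p = 0.169). It was called in 1 of 23 alternatives. At 12 h it had 11.2, 10.4 and 33 CPM in mutants and 3.45, 5.76 and 2.94 CPM in controls. The change of 2.16 (SE 0.46, edgeR adjusted p = 0.00783) was called in 22 of 23 alternatives. It was 1.4 without the 12 h mutant replicate 3 (edgeR adjusted p = 0.0217), the library with the highest value, and 2.14 in a fit of the 12 h groups alone, where the call was lost (edgeR adjusted p = 0.0588).

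PH4alphaSG2 had the fewest counts of the 10 members, with 56 counts in all over the 14 h mutants, 28 over the 14 h controls, 40 over the 12 h mutants and 24 over the 12 h controls. Its levels were 1.92 ± 0.608 CPM in 14 h mutants and 0.966 ± 0.365 CPM in 14 h controls, and 2.11 ± 1.81 CPM in 12 h mutants and 1.14 ± 0.447 CPM in 12 h controls. The changes of 0.97 (SE 0.57, edgeR adjusted p = 0.306) and 0.85 (SE 0.59, edgeR adjusted p = 0.376) did not pass. The 12 h value rested on the mutant replicate 3, which held 26 of the 40 mutant counts, and was -0.13 without it (edgeR adjusted p = 0.91). The gene shares 7.605% of its exon length with PH4alphaMP on the other strand and is a paralog of PH4alphaSG1, so some reads may be placed wrongly among the 3 genes. The ratio of PH4alphaSG1 to PH4alphaSG2 in CPM, not corrected for length, was 8.75, 12.2 and 7.88 in 12 h mutants and 3, 3.64 and 4.25 in 12 h controls, without overlap. At 14 h it was 1.58, 1.83 and 3.14 in mutants and 1.82, 0.917 and 4.4 in controls, which overlapped. The 12 h ratios rest on PH4alphaSG2 counts of 8, 6 and 26 in mutants and 9, 11 and 4 in controls, so their counting error is large.

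Papss (FBgn0020389, 3L, 19845293 to 19860925, plus strand) encodes the enzyme that makes PAPS, the sulfate donor of all sulfotransferases. It had 5.81, 2.74 and 2.71 CPM in 14 h mutants and 4.75, 2.82 and 2.44 CPM in 14 h controls, and the groups overlapped (change 0.16, SE 0.46, edgeR adjusted p = 0.865). In the earlier libraries, at 12 h, it had 7.36, 12.2 and 3.38 CPM in mutants and 3.45, 2.74 and 3.98 CPM in controls. The lowest mutant lay within the controls, and the change of 1.18 (SE 0.46) did not pass (edgeR adjusted p = 0.106). It was 0.64 without the 12 h mutant replicate 2, the library with the highest value (edgeR adjusted p = 0.405), and 1.52 without the 12 h mutant replicate 3 (0.0357).

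**Figure D4:**
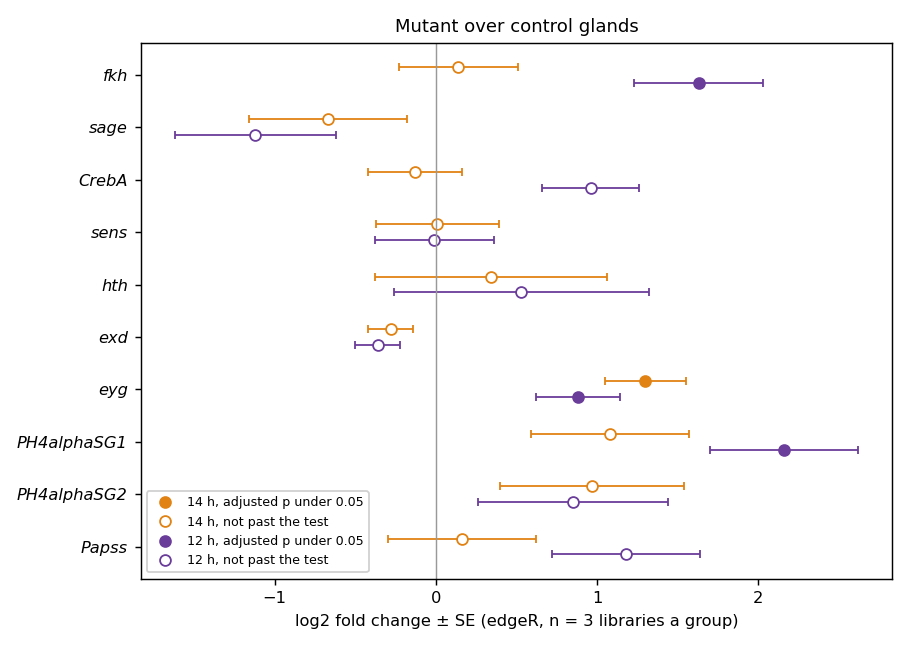
Log2 fold change of mutant over control (horizontal axis) with SE for each member at 14 h (orange) and 12 h (purple); filled points have an edgeR adjusted p under 0.05. Eyg is filled at both times, fkh and PH4alphaSG1 at 12 h, and sage and exd lie left of 0 at both times with open points.

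The genotype effect on the members was also compared between the times, as the effect at 14 h minus that at 12 h. None of the 10 was called by edgeR, DESeq2 or limma voom, while 1.75% of all tested genes were called higher and 0.963% lower. At an unadjusted p under 0.05 in edgeR 0 were higher and 2 lower: fkh at -1.49 (SE 0.55, edgeR adjusted p = 0.223) and CrebA at -1.09 (SE 0.42, edgeR adjusted p = 0.253). The share of all genes at an unadjusted p is not given for this comparison. The fkh value was -0.8 without the 12 h mutant replicate 1 (edgeR adjusted p = 0.415) and -0.9 without both libraries with gut genes (0.473). Without the 12 h control replicate 1 the CrebA value was -1.56 and was called (edgeR adjusted p = 0.0165), and without the 12 h mutant replicate 2 it was -0.87 (0.368). The calls of fkh and PH4alphaSG1 at 12 h, with none at 14 h, do not show a difference between the times.

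The comparison of 14 h with 12 h within a genotype asked how the members moved as the prepupal gland aged. In mutants 1 member rose (CrebA) and 2 fell (sens and PH4alphaSG1), while 22.6% of all tested genes rose and 22.4% fell. In controls 1 rose (CrebA) and 1 fell (sens), beside 20.8% and 22.4% of all genes. Without the 14 h mutant replicate 2 or replicate 3 the mutant count was 1 member. In controls the count was 1 without the 14 h control replicate 1 or 2 or the 12 h control replicate 2 or 3, and 4 without the 12 h mutant replicate 3. With scaling by library size alone the median of all genes shifted by 0.51 in both genotypes, so that rises gained and falls lost by about that value.

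CrebA rose in mutants to 56.3, 65.9 and 63.9 CPM at 14 h, against 33.3, 43.8 and 24 CPM at 12 h. In controls it rose to 70.6, 74.1 and 58.8 CPM at 14 h, against 26.9, 10.7 and 14.2 CPM at 12 h. No 12 h library reached the 14 h values in either genotype. The change was 0.88 in mutants (SE 0.3, edgeR adjusted p = 0.0291) and 1.97 in controls (SE 0.31, edgeR adjusted p = 0.000321). The control rise was called in all 23 alternatives (1.7 to 2.45). The mutant rise lost its call without the 12 h mutant replicate 1 (0.86, edgeR adjusted p = 0.0727) or replicate 3 (0.62, 0.114), without the 14 h mutant replicate 2 (0.83, 0.0762) or replicate 3 (0.85, 0.0706), and without both libraries with gut genes (0.82, 0.143).

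Sens fell to 5.71, 5.27 and 3.74 CPM in 14 h mutants, against 9.28, 13.4 and 9.99 CPM in 12 h mutants. The change was -1.15 (SE 0.38, edgeR adjusted p = 0.025), and the times did not overlap. In controls it fell to 5.15, 3.87 and 5.54 CPM at 14 h, against 4.73, 11.8 and 16.8 CPM at 12 h (change -1.18, SE 0.38, edgeR adjusted p = 0.0236). Here the 12 h control replicate 1 lay among the 14 h values. Both calls were lost with library size alone, at -0.62 in mutants (edgeR adjusted p = 0.141) and -0.61 in controls (0.147). The mutant call was also lost without the 12 h mutant replicate 2 (-1.01, 0.0892), the 14 h mutant replicate 2 (-1.21, 0.053) or replicate 3 (-0.99, 0.091). The control call was lost without the 12 h control replicate 2 (-1.19, 0.0637) or replicate 3 (-0.78, 0.134), or the 14 h control replicate 1 (-1.23, 0.0588) or replicate 2 (-1.04, 0.0905).

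PH4alphaSG1 fell in mutants to 3.93 ± 0.794 CPM at 14 h, against 18.2 ± 12.8 CPM at 12 h, without overlap. The change of -2.21 (SE 0.45, edgeR adjusted p = 0.00179) was called in all 23 alternatives and was -1.52 without the 12 h mutant replicate 3. In controls it stood at 1.86 ± 0.654 CPM at 14 h and 4.05 ± 1.5 CPM at 12 h (change -1.13, SE 0.5, edgeR adjusted p = 0.0855). It was called there without the 12 h mutant replicate 3 (-1.16, edgeR adjusted p = 0.0166).

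Fkh and sage did not pass the test with age in either genotype. Fkh stood at 6.82 ± 0.841 CPM in 14 h mutants and 9.38 ± 6.3 CPM in 12 h mutants (change -0.46, SE 0.37, edgeR adjusted p = 0.34). Without the 12 h mutant replicate 1 that change turned to 0.24 (edgeR adjusted p = 0.508), and without both libraries with gut genes to 0.13 (0.768). In controls it stood at 6.2 ± 0.506 CPM at 14 h and 2.98 ± 0.883 CPM at 12 h, without overlap, and its change of 1.04 (SE 0.4) was just outside the threshold (edgeR adjusted p = 0.0534). Without the 12 h mutant replicate 1 the control change of 1.04 was called (edgeR adjusted p = 0.00554). It was called too without the 12 h mutant replicate 2 (1.01, edgeR adjusted p = 0.0491) or replicate 3 (1.01, 0.0362), and with the replicate number as a block (1.09, 0.0343). Sage was at 65.6 ± 13.8 CPM in 14 h mutants and 34.3 ± 13.9 CPM in 12 h mutants (change 0.93, SE 0.5, edgeR adjusted p = 0.147), and at 104 ± 11.4 CPM in 14 h controls and 74.3 ± 68.4 CPM in 12 h controls (change 0.49, SE 0.49, edgeR adjusted p = 0.453). Without the 12 h control replicate 1 both sage changes were called, at 0.88 in mutants (edgeR adjusted p = 0.0172) and 1.52 in controls (edgeR adjusted p = 0.00169). The control change was 0.13 without the 12 h control replicate 2 and 0.18 without replicate 3. Eyg, exd, hth, PH4alphaSG2 and Papss did not pass in either genotype, with changes of -1.03 (Papss in mutants, SE 0.45, edgeR adjusted p = 0.0796) to 0.78 (hth in controls, SE 0.76). The Papss change in mutants was called without the 12 h mutant replicate 3 (-1.44, edgeR adjusted p = 0.014) or the 14 h mutant replicate 1 (-1.48, 0.0338), and was -0.56 without the 12 h mutant replicate 2 (0.364).

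**Figure D5:**
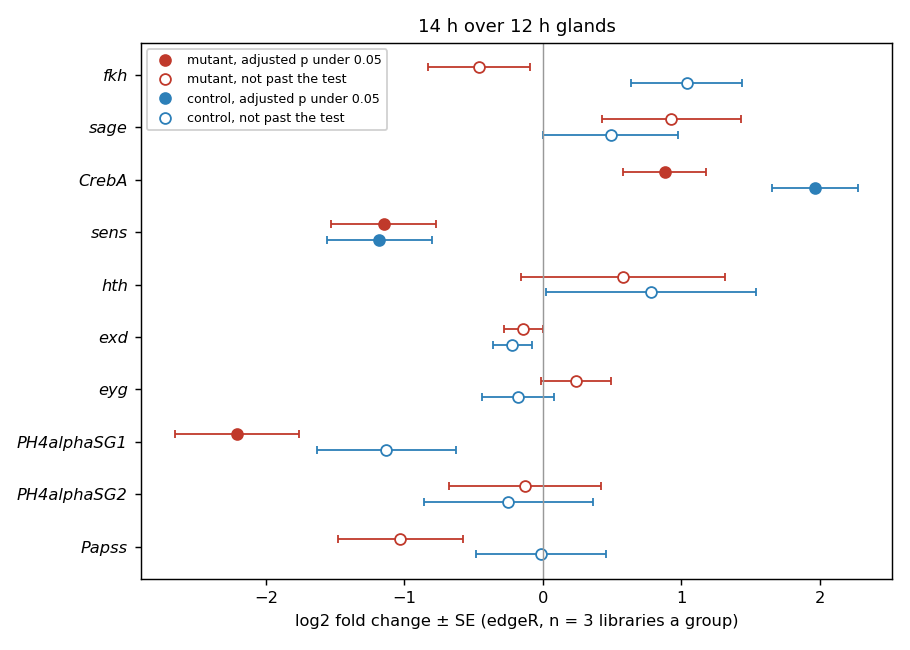
Log2 fold change of 14 h over 12 h (horizontal axis) with SE for each member in mutants (red) and controls (blue); filled points have an edgeR adjusted p under 0.05. CrebA lies right of 0 and sens left of 0 in both genotypes with filled points, and PH4alphaSG1 is filled in mutants.

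Markers of other tissues were read beside the changes with age, against the 22.6% of all genes that rose and 22.4% that fell in mutants, and 20.8% and 22.4% in controls. Fat body markers (8) summed to 413 to 675 CPM in 14 h mutants, 497 to 544 in 14 h controls, 139 to 251 in 12 h mutants and 151 to 218 in 12 h controls, with FASN2 at 0 in the mutants of both times and Yp1 at 0 in 12 h mutants. Of 6 tested, 6 rose in mutants and 3 in controls. Neuron markers (6) summed to 26.4 to 31.4 CPM in 14 h mutants, 13.1 to 17.4 in 14 h controls, 3.86 to 8.48 in 12 h mutants and 2.59 to 10.4 in 12 h controls, and 3 of 5 tested rose in mutants and 1 in controls. Hemocyte markers (6), mostly the scavenger receptor gene crq, summed to 861 to 896 CPM in 14 h mutants, 980 to 1030 in 14 h controls, 917 to 1230 in 12 h mutants and 1360 to 1510 in 12 h controls. The crq mean was lower at 14 h in both genotypes, with changes of -0.31 in mutants (SE 0.15, edgeR adjusted p = 0.109) and -0.52 in controls (SE 0.15, 0.0142). Without crq the hemocyte sums were higher at 14 h, at 11.1 to 13 CPM in 14 h mutants, 12.3 to 16 in 14 h controls, 5.01 to 7.68 in 12 h mutants and 4.84 to 6.27 in 12 h controls, with eater at 0 in the 14 h mutants and the 12 h controls. Of 4 tested hemocyte markers 1 rose in mutants (25%), and 3 rose and 1 fell in controls. Muscle markers (8) summed to 271 to 293 CPM in 14 h mutants, 180 to 201 in 14 h controls, 1100 to 1370 in 12 h mutants and 338 to 1350 in 12 h controls. Most of this difference in the sums came from bt. Without it the sums overlapped between the times, at 21.7 to 36.9 CPM in 14 h mutants, 20.8 to 32.9 in 14 h controls, 26.7 to 48.2 in 12 h mutants and 28.3 to 60.7 in 12 h controls. Of 8 tested, 2 fell in mutants (TpnC73F and bt, 25%, near the share of all genes) and 3 in controls (up, TpnC73F and bt, 37.5%). The median change of the muscle list was -0.5 in mutants and -1.45 in controls, against 0.14 and 0.12 over all genes. Trachea and epidermis markers (7) overlapped between the times, at 131 to 154 CPM in 14 h mutants, 115 to 132 in 14 h controls, 99.7 to 220 in 12 h mutants and 62.7 to 225 in 12 h controls, with Cpr49Ah at 0 in 14 h controls. Of 5 tested 1 fell in each genotype (20%), near the share of all genes. Their part in the changes of CrebA, sens and PH4alphaSG1 with age was not tested.

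For each member the 3 named genes with the closest course over the 12 libraries were found by the root mean square difference of log2 CPM, each gene centred on its own mean, among 5014 genes. The closest to CrebA was EcR, the ecdysone receptor gene, at 0.21, while CrebA itself varied by 0.89 around its mean; gpp (0.31) and Npc2a (0.33) came next. The closest to PH4alphaSG1 were Sgs8 (0.45), a glue gene, pip (0.47), a sulfotransferase gene, and Sgs1 (0.49), another glue gene, against its own spread of 1.18. For eyg they were ush (0.24), which encodes a cofactor of GATA factors, yellow-g (0.27) and Pcyt1 (0.28), against 0.62. For fkh they were Adk2 (0.26), Pi3K21B (0.31) and the actin gene Act42A (0.32), against 0.67. For sage they were otu (0.33), Pect (0.35) and cv-c (0.35), against 0.83. Sens was closest to RpL6 (0.26), a ribosomal protein gene, ATPsynbeta (0.26), a subunit of the mitochondrial ATP synthase, and Cnx99A (0.27), a calnexin of the endoplasmic reticulum, against 0.68. Exd was closest to SCCRO3 (0.11), Tsp3A (0.11) and Adar (0.12), against a spread of only 0.21. For the 3 remaining genes of low count the nearest were kek1 (0.44), Nlp (0.49) and Cht7 (0.5) for hth, against 1.29. They were Mybbp1A (0.28), mod (0.34) and RpLP0-like (0.35) for PH4alphaSG2, against 0.65, and wnd (0.35), Mtp (0.38) and by (0.42) for Papss, against 0.64.

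Other genes of the gland programme were read by list, against the shares of all genes called (8.29% higher and 6.91% lower in 14 h mutants, 7.94% and 7.87% in 12 h mutants) and medians of 0.05 at 14 h and 0.01 at 12 h. Of 11 regulators of gland and duct fate 5 were tested. In 14 h mutants toe was higher and none lower (median -0.25), and in 12 h mutants Scr was lower and none higher (median 0.11). Scr, the homeotic gene that starts the gland programme, stood at 1.37 ± 0.644 CPM in 12 h mutants and 4.83 ± 2.89 CPM in 12 h controls (change -1.82, SE 0.5, edgeR adjusted p = 0.0281). It had only 4, 13 and 10 counts in mutants and 55, 41 and 9 in controls. The groups overlapped, with the third control at 1.56 CPM within the mutants at 0.64 to 1.86 CPM. Limma voom did not call Scr. Its call was lost without the 12 h control replicate 1 (-1.49, edgeR adjusted p = 0.0803) or 2 (-1.65, 0.0708) and without the 12 h mutant replicate 1 (-1.48, 0.0965) or 3 (-1.93, 0.0513). Of 15 other forkhead-domain genes 6 were tested, and jumu, a regulator of chromatin and cell fate, was the 1 called, lower at both times. It stood at 49.2 ± 7.04 CPM in mutants, against 89 ± 1.05 CPM in controls at 14 h (change -0.86, SE 0.15, edgeR adjusted p = 0.00206), and at 37.4 ± 4.29 CPM in mutants, against 54.3 ± 4.37 CPM in controls at 12 h (-0.54, SE 0.15, 0.0336). The 12 h call of jumu was kept in 11 of 23 alternatives, was -0.45 without the 12 h mutant replicate 1 (edgeR adjusted p = 0.131), and was lost as well without the 12 h control replicate 3, each 14 h control replicate in turn or the 14 h mutant replicate 2 (-0.53 to -0.54). The list medians were 0.15 at 14 h and 0.18 at 12 h.

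The 6 relatives of CrebA among the CREB and ATF genes were all tested, with medians of 0.08 at 14 h and -0.07 at 12 h. At 14 h Atf6, a sensor of stress in the endoplasmic reticulum, was lower in mutants, at 15.1 ± 1.39 CPM in mutants, against 23.3 ± 3.4 CPM in controls (change -0.63, SE 0.18, edgeR adjusted p = 0.0303). That call was lost without each of the 14 h mutant replicates in turn, or the 14 h control replicate 2 or 3 (-0.52 to -0.7). At 12 h CrebB, the fly CREB gene, was lower, at 253 ± 65.2 CPM in mutants, against 515 ± 101 CPM in controls (-1.02, SE 0.2, edgeR adjusted p = 0.00564), and was called in all 23 alternatives. No gene of this list was higher in mutants by edgeR, DESeq2 or limma voom; at an unadjusted p under 0.05 in edgeR 1 was higher at 14 h and 0 at 12 h.

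CrebA is known to raise secretory pathway genes, and 34 of these were tested. In 14 h mutants 4 were higher (Spase12, TRAM, Sec24CD and Arf1) and in 12 h mutants 7 (twr, Sec23, Sec24CD, Sec13, beta'COP, gammaCOP and zetaCOP). These were 11.8% of the list at 14 h, near the 8.29% of all genes called higher, and 20.6% at 12 h, beside 7.94%. The median was 0.4 at both times, against 0.05 and 0.01 over all genes. None was lower by edgeR, DESeq2 or limma voom, nor at an unadjusted p under 0.05. Arf1, a small GTPase of vesicle budding, stood at 269 ± 37.9 CPM in mutants, against 158 ± 32.7 CPM in controls at 14 h (change 0.76, SE 0.19, edgeR adjusted p = 0.0147). Its call was lost without the 14 h control replicate 1 (0.68, edgeR adjusted p = 0.0818) or 2 (0.67, 0.0855) and without the 14 h mutant replicate 3 (0.64, 0.072). At 12 h gammaCOP, a coat protein of vesicles from the Golgi, stood at 41.3 ± 3.89 CPM in mutants, against 23.5 ± 2.71 CPM in controls (0.81, SE 0.17, 0.00613). Sec13, a coat protein of vesicles from the endoplasmic reticulum, stood at 9.62 ± 0.133 CPM in mutants, against 5.36 ± 0.251 CPM in controls (0.84, SE 0.2, 0.0152). Both kept their call without any single library.

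Of 8 other prolyl and lysyl hydroxylase genes, the shared subunit Pdi included, 4 were tested. In 14 h mutants Pdi and PH4alphaMP were higher and PH4alphaEFB lower (median 0.32), and in 12 h mutants PH4alphaMP was higher and PH4alphaEFB lower (median -0.22). Pdi, the protein disulfide isomerase that is also the beta subunit of prolyl 4-hydroxylase, had 114, 189 and 127 CPM in 14 h mutants and 69.7, 55.1 and 68.1 CPM in 14 h controls. The groups were far apart, with a change of 1.16 (SE 0.25, edgeR adjusted p = 0.00825). Without the 14 h control replicate 2 the change was 1.05 (edgeR adjusted p = 0.0528), and without both libraries with gut genes 0.91 (0.0595). PH4alphaMP, the alpha subunit gene next to PH4alphaSG2, had 34 counts over the 14 h mutants and 2 over the 14 h controls, a scaled ratio of 16.5 with an exact 95% counting interval of 4.22 to 141. At 12 h it stood at 5.03 ± 2.56 CPM in mutants, against 1.6 ± 0.824 CPM in controls (1.63, SE 0.49, edgeR adjusted p = 0.0425), and that call was kept in 8 of 22 alternatives. PH4alphaEFB, the alpha subunit of wide expression, stood at 154 ± 11.4 CPM in mutants, against 219 ± 13.8 CPM in controls at 14 h (-0.51, SE 0.15, 0.0393), and at 97.2 ± 13.3 CPM in mutants, against 140 ± 16.5 CPM in controls at 12 h (-0.52, SE 0.15, 0.0367). These calls were kept in 13 of 23 alternatives at 14 h and 8 of 23 at 12 h. The 14 h call was lost without each of the 14 h libraries in turn and without the 12 h mutant replicate 1 (-0.46 to -0.57). The 12 h calls of both PH4alphaMP and PH4alphaEFB were lost without each of the 14 h libraries in turn, which enter only through the shared spread, without the 12 h control replicate 1 or 3 and without the 12 h mutant replicate 1. The lowest size was 1.12 for PH4alphaMP without the 12 h mutant replicate 2 and -0.44 for PH4alphaEFB without the 12 h mutant replicate 3.

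Among 9 genes of sulfate donor transport and transfer 7 were tested. At 14 h none was called by edgeR, DESeq2 or limma voom, nor at an unadjusted p under 0.05 (median -0.02). At 12 h Hs3st-A was lower and pip higher (median 0.02). Hs3st-A, a heparan sulfate sulfotransferase gene, had 1.44, 1.57 and 0 CPM in 12 h mutants and 78.4, 48.1 and 84.9 CPM in 12 h controls (change -6.09, SE 0.54, edgeR adjusted p = 1.51e-05). At 14 h the groups overlapped, at 7.95, 13.1 and 12.5 CPM in mutants and 14.9, 17.9 and 12.5 CPM in controls (change -0.43, SE 0.4). The sulfotransferase gene pip, known for a role in dorsoventral patterning and expressed in embryonic glands, stood at 9.33 ± 8.6 CPM in 12 h mutants and 2.05 ± 1.51 CPM in 12 h controls, with overlap (2.16, SE 0.67, edgeR adjusted p = 0.0458). Its call was kept in 6 of 22 alternatives, among the fits without 1 library only without the 12 h mutant replicate 2 or the 12 h control replicate 2, and its change was 1.09 without the 12 h mutant replicate 3, the library that also held the highest PH4alphaSG1 value.

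Glue genes, the classic products of the secretory cells, numbered 12, of which 10 were tested. In 14 h mutants 4 were higher (Sgs5, Sgs5bis, Sgs8 and Eig71Ee, median 1.32) and in 12 h mutants 5 (Sgs1, Sgs5bis, Sgs7, Sgs8 and ng4, median 1.51). These were 40% of the list at 14 h, beside 8.29% of all genes, and 50% at 12 h, beside 7.94%, with medians over all genes of 0.05 and 0.01. None was lower by edgeR, DESeq2 or limma voom, nor at an unadjusted p under 0.05. Sgs1 had 3.46, 3.18 and 2.24 CPM in 14 h mutants, 1.78, 1.88 and 2.44 CPM in 14 h controls, 19, 7.15 and 23.4 CPM in 12 h mutants and 2.94, 3.46 and 3.63 CPM in 12 h controls. Its values were thus highest in 12 h mutants, as were those of PH4alphaSG1. At 14 h the PH4alphaSG1 values were also higher in mutants than in controls without overlap, though that change did not pass. The Sgs1 change was 0.54 (SE 0.4, edgeR adjusted p = 0.438) at 14 h and 2.3 (SE 0.38, 0.00186) at 12 h. The glue sums were 671 to 1310 CPM in 14 h mutants, 61.9 to 102 in 14 h controls, 1250 to 4850 in 12 h mutants and 178 to 570 in 12 h controls. Without Sgs5bis, the most abundant of them in each group, they were 89.4 to 116 CPM in 14 h mutants, 34.4 to 43.9 in 14 h controls, 124 to 241 in 12 h mutants and 53.7 to 111 in 12 h controls.

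The death genes that Fork head holds down, hid and rpr, were both tested. Rpr was lower in mutants at both times, at 231 ± 65.9 CPM in mutants, against 488 ± 112 CPM in controls at 14 h (change -1.08, SE 0.28, edgeR adjusted p = 0.0213), and at 171 ± 40.2 CPM in mutants, against 346 ± 101 CPM in controls at 12 h (-1.02, SE 0.28, 0.03). The 14 h call of rpr was lost without the 14 h mutant replicate 1 (-1.15, edgeR adjusted p = 0.053) or 2 (-0.86, 0.0943) and without the 14 h control replicate 2 (-1.14, 0.051) or 3 (-0.88, 0.1). The 12 h call was lost without the 12 h mutant replicate 1 (-0.83, 0.113) or 3 (-1.1, 0.0507) and without the 12 h control replicate 1 (-0.81, 0.0717). Hid had 238, 223 and 245 CPM in 14 h mutants and 550, 667 and 603 CPM in 14 h controls. These values were far apart, yet the change of -1.37 (SE 0.7) did not pass in the shared fit (edgeR adjusted p = 0.228). It passed in a fit of the 14 h groups alone (-1.38, edgeR adjusted p = 2.67e-05) and without the 12 h control replicate 1 (-1.4, 0.000308). At 12 h hid had 27.7, 34.9 and 24.6 CPM in mutants and 226, 15.4 and 26.4 CPM in controls, which overlapped. Its 12 h change of -1.62 (SE 0.72, edgeR adjusted p = 0.149) rested on the 12 h control replicate 1 and turned to 0.42 without it (edgeR adjusted p = 0.267). Without the 12 h control replicate 2 it was -2.09 (edgeR adjusted p = 0.0326).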

How the data were processed

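RNA was counted in 12 libraries of salivary glands, prepared with the NucleoSpin RNA kit per the labels. The authors deposited whole-number read counts for each gene. Per the submitters' processing notes, featureCounts 1.6.3, STAR 2.7.6a, DESeq2 1.30.1, cutadapt 1.16 and build BDGP6 were used; the strand setting, the annotation release and the treatment of reads with several matches are not given in the sources used here. Positions and exon lengths come from an Ensembl annotation of BDGP6, which matched 17710 of 17807 genes, and its release may differ from that of the authors.

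Genes were filtered with filterByExpr (7584 of 17807 kept) and scaled by TMM. The 12 libraries entered a single edgeR 4.0.16 quasi-likelihood fit (R 4.3.3) with a mean for each of the 4 groups, and Benjamini-Hochberg adjustment ran over all genes tested. SE was taken as the size of the log2 fold change divided by the root of its F statistic. Log2 CPM used a prior count of 2. Alternatives were DESeq2 1.42.0, limma 3.58.1 (voom), other scalings and filters, the compared groups only, a replicate block, an adjusted p under 0.01, and leaving out libraries. The steps were tested on simulated data.

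Besides the members, named genes were those of other lists with the smallest genotype p (up to 3 a list), hid and rpr, the 3 most alike genes of each member, the most abundant gene of each marker list, and Eip93F; other symbols are listed only as called members of a list, or as markers at 0. The members and lists were chosen with earlier results of these data known. The labels do not say whether replicates came from separate animals, so p-values measure the spread between these samples. Intervals and count floors cover counting error only. Same-number replicates did not deviate together (18 pairs, correlation -0.257 to 0.238), so they were not paired. No sequences are shown.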

Additional observations from a re-analysis of the deposited data

Results flagged for a closer look

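For 2 genes of the lists the genotype effect differed between the times. The test was of the difference itself, the effect at 14 h minus that at 12 h. Over all tested genes 1.75% were called higher and 0.963% lower in this test. These 2 were 1 of 7 tested genes of sulfate donor transport and transfer and 1 of 10 tested glue genes. The members and all other lists had none. For the sulfotransferase gene Hs3st-A the difference was 5.65 on the log2 scale (edgeR adjusted p = 0.000669): its 14 h change was -0.43 and its 12 h change -6.09. For Eig71Ee, counted here with the glue genes, it was 1.75 (edgeR adjusted p = 0.0193): its 14 h change was 2.32 and its 12 h change 0.57.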

How the results depend on the processing

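Of 1184 values of the members under the alternatives, 1108 kept their side of the threshold, 42 lost a call and 34 gained a call. Of these values 0 changed sign while called, and the cause was not tested. Most of the 1184 belong to comparisons not called in the main fit, so the 42 losses fall on the few that were. A value that changed sign but stayed uncalled was counted as kept. The members called at 12 h numbered 3, and 0 in a fit of the compared groups only, 1 without both libraries with gut genes and 1 at an adjusted p under 0.01. With the replicate number as a block they numbered 2, eyg being lost, and the block gave 1 member in place of 1 at 14 h, 3 in place of 2 for age in controls and 3 in place of 3 for age in mutants. All genes called at 12 h numbered 1199, and 459 for the compared groups only, 676 without both libraries with gut genes, 792 without these and the 12 h control replicate 1, and 520 at 0.01. At 14 h the compared groups only gave 3 members in place of 1 and 2128 genes in place of 1153, and 0.01 gave 636 genes. For age in controls the 2 members became 1 with limma voom, 4 without the gut libraries and the 12 h control replicate 1, and 1 at 0.01. For age in mutants the 3 members became 1 without both libraries with gut genes and 1 at 0.01. The genes whose genotype effect differed between the times numbered 206, and 334 with DESeq2, 84 without both libraries with gut genes and 71 at 0.01. Leaving out 1 library gave 1 to 4 members and 798 to 1185 genes at 12 h, 1 member and 701 to 1587 genes at 14 h, 1 to 4 members and 2515 to 3609 genes for age in controls, 1 to 4 members and 2907 to 3650 genes for age in mutants, and 0 to 1 members and 105 to 430 genes for the difference between the times. Among the other named genes, the change of Atf6 with age in mutants was -0.47 and became 0.03 with library size alone. The hid effect at 14 h minus that at 12 h was 0.25; leaving out 1 library gave -1.83 (without the 12 h control replicate 1) to 0.69, and it was -1.82 without this and both libraries with gut genes. Low counts limit hth, PH4alphaSG1, PH4alphaSG2, Papss and fkh most.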
